A study of Mus musculus with 4 samples.

Results

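Natural killer (NK) cells of the mouse nasal mucosa were examined in single-cell RNA sequencing data of CD45+ cells, CD45 being a surface protein of all leukocytes. The data comprised 4 libraries, 1 per group, and the groups are labelled Vehicle, Vehicle-OVA, Ribavirin as well as Ribavirin-OVA. All mice were C57BL/6 aged 8 weeks. OVA is ovalbumin, the allergen used to induce allergic rhinitis, and ribavirin is an antiviral drug that the series describes as a spray against commensal viruses of the nose. Nasal mucosa was digested with enzymes and its CD45+ cells were taken with magnetic beads per the sample labels, whereas the series text names flow sorting, and the labels do not state how many mice gave a library. With 1 library per group no difference could be set against a spread between mice, so no test was run, and each interval given is a 95% interval that covers counting error only.

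A cell was taken as an NK cell when it held at least 500 unique molecular identifiers (UMIs, each standing for 1 captured RNA molecule), at least 200 genes and under 10% mitochondrial UMIs, and met a gate on raw UMIs. The gate asked for a sum of at least 2 UMIs over Ncr1, Klrb1c and Klre1, which encode NK cell receptors, for a sum under 2 over the T cell genes Cd3e, Cd3d and Cd3g and under 2 over the macrophage genes C1qa, C1qb and C1qc, and for 0 UMIs of Cd79a, Cxcr2 and Siglech. It held 1175 of 72320 passing cells, namely 521 of the Vehicle, 77 of the Vehicle-OVA, 468 of the Ribavirin and 109 of the Ribavirin-OVA library. Values below follow this order of the libraries unless stated otherwise. The genes of the gate chose the cells and are not reported as results.

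NK cells are innate lymphocytes that kill infected or altered cells by releasing perforin and granzymes, and that secrete interferon-γ and chemokines. They carry no rearranged antigen receptor and weigh germline-encoded activating receptors against inhibitory ones. The Ly49 family (Klra genes), many members of which read MHC class I, holds receptors of both kinds. In the mouse they mature from cells with CD27 to cells with CD11b (Itgam), and they share many genes with group 1 innate lymphoid cells (ILC1), which stay in tissues.

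Because Eomes and T-bet, the T-box transcription factors of NK cells, bind near many effector genes, the 250 bases before the RefSeq start of 4 such genes are shown, read from the GRCm38.p6 assembly on the strand of the gene. Capitals mark the T-box core TCACAC or its reverse complement GTGTGA, searched on both strands. The windows are chr1:164935523-164935772 (minus strand) for the chemokine gene Xcl1, chr7:43436888-43437137 (plus strand) for the granule protein gene Nkg7, chr13:113100982-113101231 (minus strand) for granzyme A and chr10:61297586-61297835 (plus strand) for perforin.
Xcl1: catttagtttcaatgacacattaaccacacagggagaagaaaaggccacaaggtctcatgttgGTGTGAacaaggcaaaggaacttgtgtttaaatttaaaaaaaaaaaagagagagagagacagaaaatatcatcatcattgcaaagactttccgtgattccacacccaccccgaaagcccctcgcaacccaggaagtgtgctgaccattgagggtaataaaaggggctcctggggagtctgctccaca
Nkg7: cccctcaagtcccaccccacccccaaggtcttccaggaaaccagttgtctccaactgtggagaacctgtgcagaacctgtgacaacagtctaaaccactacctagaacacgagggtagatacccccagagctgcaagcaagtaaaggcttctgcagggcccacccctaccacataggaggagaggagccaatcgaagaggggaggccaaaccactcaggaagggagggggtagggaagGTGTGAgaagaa
Gzma: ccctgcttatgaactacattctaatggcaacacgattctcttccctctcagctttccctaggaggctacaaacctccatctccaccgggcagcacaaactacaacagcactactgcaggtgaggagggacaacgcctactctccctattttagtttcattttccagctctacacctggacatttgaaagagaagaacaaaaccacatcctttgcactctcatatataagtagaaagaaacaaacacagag
Prf1: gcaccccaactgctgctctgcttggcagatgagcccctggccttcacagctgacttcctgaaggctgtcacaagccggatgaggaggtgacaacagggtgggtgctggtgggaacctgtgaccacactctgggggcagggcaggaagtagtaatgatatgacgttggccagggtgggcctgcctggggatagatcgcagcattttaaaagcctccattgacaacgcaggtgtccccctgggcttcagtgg
Xcl1 held 1 match, whose first base lay 187 bases before the start, and Nkg7 held 1 match 12 bases before it. Gzma and Prf1 held 0 matches. Of 32851 RefSeq windows of the same length, 4039 (12.3%) held the core, and a match is a string of letters, not a measured binding site.

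The gate was checked against markers that it did not use. With every other condition met, cells just inside the gate, at a sum of 2, numbered 52, 7, 49 and 8, and their summed Gzma stood at 2120, 503, 2684 and 5892 UMIs per 1000000 UMIs (CPM). Cells just outside it, at a sum of 1, numbered 88, 47, 100 and 30, with Gzma at 57.1, 123, 285 and 869 CPM. Nkg7 stood at 985, 168, 796 and 943 CPM just inside and at 60.8, 77.7, 90.7 and 97.1 CPM just outside. The 7 cells of Vehicle-OVA just inside the gate were thus the lowest of the 4 libraries in both genes. Of the cells without the excluded markers that held at least 5 Gzma and 2 Nkg7 UMIs (373, 51, 353 and 96 cells), 97.6%, 90.2%, 95.2% and 93.8% were in the gate.

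The NK cells gave 2079131, 509338, 2125624 and 741365 UMIs in all, with a median of 3429, 4911, 3950 and 5321 UMIs per cell. Both OVA libraries were thus deeper per NK cell than the libraries without OVA, while they held fewer NK cells. The median mitochondrial share per NK cell was 2.56%, 3.94%, 2.71% and 4.17%. Ribosomal protein genes made up 25.3%, 16.9%, 23.9% and 16.6% of the summed NK UMIs, and ribosomal genes in T cells ran the same way, at 26.0%, 14.0%, 24.1% and 13.3%. Of the NK cells, 14, 2, 14 and 1 were marked as doublets, and these were kept. Each pair of libraries shared between 57 and 174 cell barcodes, which concerned 13 NK cells, and 0 barcodes were in the NK gate of both libraries.

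RNA of other cell types differed between the NK cells of the libraries. Summed over its marker list, neutrophil RNA stood at 436, 1486, 834 and 294 CPM in NK cells, which is 3.30%, 4.37%, 4.39% and 2.50% of its level in all other cells. Macrophage markers summed to 861, 257, 726 and 285 CPM, and epithelial markers to 94.8, 116, 2206 and 495 CPM. Dendritic cell markers, which include MHC class II genes, summed to 2939, 2168, 2101 and 444 CPM, so Ribavirin-OVA was lowest. B cell, plasma cell, plasmacytoid dendritic cell, ILC2 and monocyte markers ranged from 5.89 to 46.6, 295 to 422, 231 to 295, 97.9 to 263 and 1463 to 1518 CPM. Mast cell and basophil markers summed to 0, 1769, 0.47 and 2.70 CPM, and the value of Vehicle-OVA came from 1 cell. T cell markers summed to 197, 273, 212 and 336 CPM in NK cells and to 4090, 3848, 3728 and 3822 CPM in T cells. NK cells with over 1% of their UMIs in markers of other types numbered 17, 6, 32 and 0, and results that differ without them are given with both values.

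NK cells made up 2.03% (1.86 to 2.20), 0.440% (0.347 to 0.550), 2.31% (2.11 to 2.52) and 1.24% (1.02 to 1.49) of the passing cells. Both OVA libraries held the smaller share, with a ratio of 0.217 (0.169 to 0.276) for Vehicle-OVA over Vehicle and 0.536 (0.431 to 0.661) for Ribavirin-OVA over Ribavirin. Ribavirin-OVA stood 2.81-fold (2.08 to 3.81) above Vehicle-OVA. Ribavirin stood 1.14-fold (1.004 to 1.29) above Vehicle, and on the log2 scale this ratio of 0.19 became -0.04 when each cell was thinned to 1000 UMIs before the gate was applied.

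The shares depend on what else the sample held. Cells in a neutrophil gate numbered 6328, 7070, 5686 and 2028, which was 40.4% of the passing cells of Vehicle-OVA and at most 28.0% of those of the other libraries. Counted against NK and T cells alone, NK cells made up 6.59% (6.05 to 7.16), 4.58% (3.63 to 5.69), 8.97% (8.21 to 9.78) and 5.46% (4.50 to 6.55). On this base the OVA ratios were 0.695 and 0.608, close to each other, and Ribavirin-OVA over Vehicle-OVA was 1.19, or 0.25 on the log2 scale with an interval of -0.18 to 0.69 that includes 0. A difference in the number of NK cells cannot be told apart here from a difference in the recovery of other cells.

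**Figure D1:**
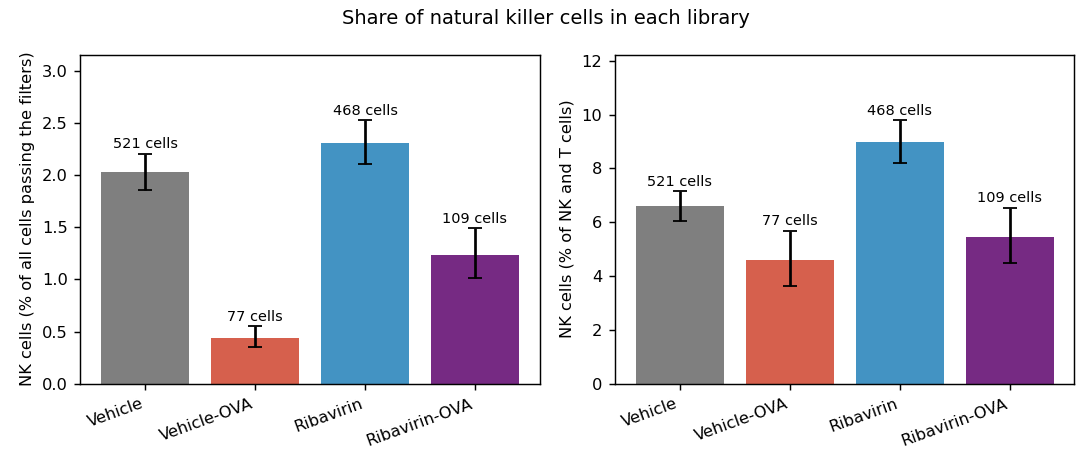
NK cells as a percentage of all passing cells and of NK and T cells in each of the 4 libraries; bars are shares and whiskers are 95% Clopper-Pearson intervals for counting error. On both bases the OVA library of each pair sits below its partner, and the large gap between Vehicle-OVA (0.440%) and Ribavirin-OVA (1.24%) on the first base narrows to 4.58% and 5.46% on the second.

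The genes that stood furthest above all other passing cells in every library were receptors and killing genes. Ranked by the lowest log2 ratio over the 4 libraries, they were Klra4 (7.23), Klra8 (6.94), Gzma (6.45), Serpinb9b (6.38), Klra9 (6.25), Klra7 (5.89), Prf1 (5.73), Klri2 (5.72), Eomes (5.57), Klra3 (5.41), Styk1 (5.06) and Klrc2 (5.00). These are descriptions of the gated cells with no test, because a gate picks cells whose other genes come along with it. Klra4, Klra8, Klra9, Klra7 and Klra3 are Ly49 genes, and since Klra genes are near-identical in places, reads may be split between them and the level of each is uncertain.

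Shares of cells with a UMI were set against cell types that should lack the gene, after thinning each cell to 1000 UMIs, which kept 516, 75, 468 and 109 NK cells. Gzma was found in 75.6%, 65.3%, 75.2% and 85.3% of NK cells, against 0.26% to 0.60% of macrophages and 0.39% to 0.72% of neutrophils. Without thinning the NK shares were 80.2%, 70.1%, 81.4% and 92.7%. Unthinned median depths were 9565, 8741, 10046 and 9153 UMIs in macrophages and 2430, 3382, 2888 and 3318.5 UMIs in neutrophils, around the 3429 to 5321 UMIs of NK cells. Eomes was found in 19.2%, 29.3%, 22.2% and 39.4% of thinned NK cells (45.7%, 61.0%, 55.3% and 81.7% unthinned), with the OVA libraries above the others.

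To describe the NK cells under the allergen, 6021 genes with a mean of at least 20 CPM over the 4 libraries were compared between summed NK cells, on the scale log2(CPM + 1), and a gene was counted when past 2-fold. In Vehicle-OVA over Vehicle, 691 genes were higher (11.5%) and 252 lower (4.19%). In Ribavirin-OVA over Ribavirin, 514 were higher (8.54%) and 299 lower (4.97%). These pairs share no library, and 218 genes were higher in both (31.5% and 42.4% of each list), 110 lower in both (43.7% and 36.8%), 34 higher in Vehicle-OVA but lower in Ribavirin-OVA (4.92% and 11.4%), and 0 the other way round.

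Ribavirin against vehicle gave fewer genes without the allergen and more with it. In Ribavirin over Vehicle 49 genes were higher (0.814%) and 9 lower (0.149%), and in Ribavirin-OVA over Vehicle-OVA 128 were higher (2.13%) and 256 lower (4.25%). The OVA libraries hold 77 and 109 NK cells and the others 521 and 468, so counting error is larger in the last pair. Whether the pairs differ for this reason was not tested.

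The whole profile was shifted in the OVA pairs. The median gene stood at 0.28 in Vehicle-OVA over Vehicle and 0.25 in Ribavirin-OVA over Ribavirin on the log2 scale, at 0.01 in both ribavirin pairs, and at 0.40 in both OVA pairs in T cells. Ratios ran with transcript length, with a Spearman's rho across 6015 genes (which are not independent) of 0.39 and 0.42 in the OVA pairs. The 10% of genes with the shortest transcripts had a median of -0.53 and -0.54 and the 10% with the longest 0.50 and 0.50. Relative to the median gene, 297 genes were higher and 517 lower in Vehicle-OVA over Vehicle, and 201 and 494 in Ribavirin-OVA over Ribavirin, so the balance of higher and lower genes turned, and ratios are read below against 0.28 and 0.25. What sets the dependence on length was not tested.

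**Figure D2:**
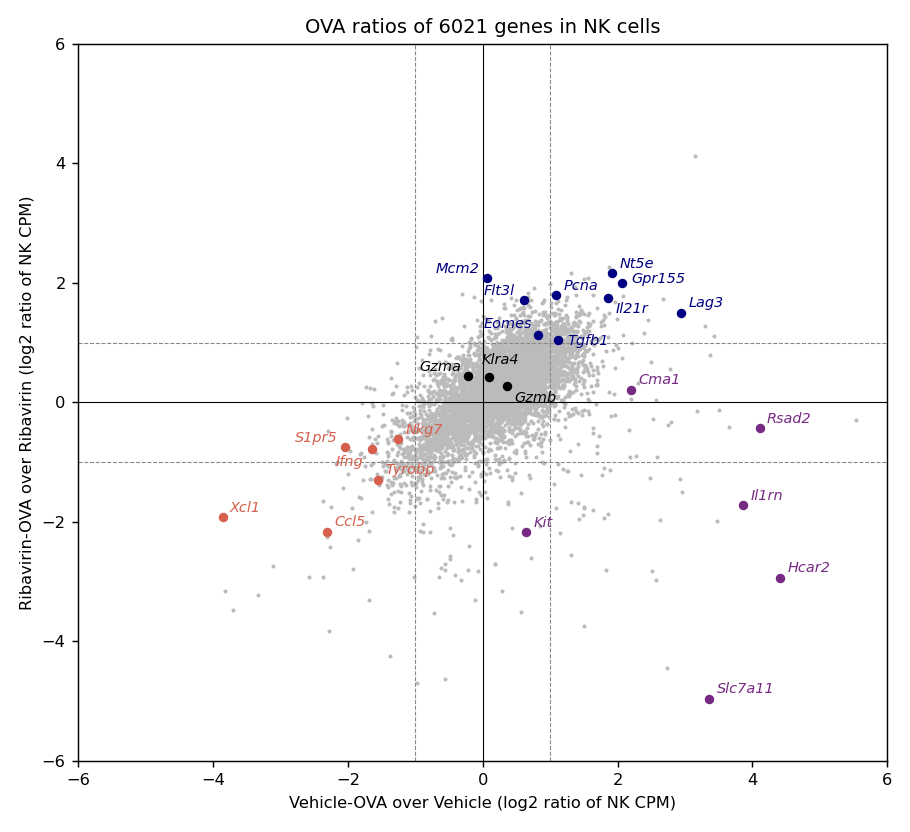
Each point is 1 of 6021 genes in NK cells, with the log2 ratio of Vehicle-OVA over Vehicle on the x axis and of Ribavirin-OVA over Ribavirin on the y axis; dashed lines mark 2-fold and 9 genes lie outside the axes. The cloud is centred above 0 on both axes (medians 0.28 and 0.25), Ccl5 and Xcl1 lie low on both, and genes such as Hcar2 and Slc7a11 lie high on x and low on y.

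The genes of killing lay near the median of all genes. Lists are counted below over their members with a mean of at least 20 CPM outside the gate, such as 17 of 23 cytotoxic granule genes, 8 of 12 secreted genes, 24 of 27 interferon-stimulated genes and 14 of 23 cell cycle genes, and each count can be read against the percentages of all genes given above. Gzma, a granzyme of NK cells and T cells, stood at 7290, 6269, 6174 and 8387 CPM, a ratio of 0.860 (0.828 to 0.893) in the vehicle pair and 1.36 (1.32 to 1.40) in the ribavirin pair, on opposite sides of 1. On the log2 scale these are -0.22 and 0.44, and corrected for transcript length both lay above 0, at 0.31 and 0.98. Gzmb, which cleaves caspases in target cells, stood at 715, 921, 672 and 817 CPM, and Prf1, the pore-forming perforin, at 260, 171, 234 and 213 CPM. Of 17 measured cytotoxic granule genes, 1 was higher and 1 lower in Vehicle-OVA over Vehicle and 0 in either direction in Ribavirin-OVA over Ribavirin, with medians of 0.22 and 0.28, close to the median of all genes.

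Nkg7, a membrane protein of cytotoxic granules, was the granule gene past 2-fold downwards, in the vehicle pair alone. It stood at 2014, 844, 1700 and 1107 CPM, ratios of 0.419 (0.379 to 0.463) and 0.652 (0.603 to 0.703), and both OVA libraries lay below both others. In T cells its log2 ratios were 0.02 and 0.09, against -1.25 and -0.62 in NK cells. Over the alternative settings the NK values of Nkg7 ranged from -1.54 to -0.73 and from -0.87 to -0.08. Under some settings it was thus not past 2-fold in either pair. Rab27a, a GTPase needed for granule release, lay the other way at 61.6, 124, 73.4 and 142 CPM. Gzmc stood at 96.2, 271, 24.9 and 49.9 CPM but came from 12, 4, 12 and 2 cells, with 87.0%, 97.8%, 34.0% and 70.3% of its UMIs in a single cell.

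Chemokines and cytokines made by NK cells were mostly lower in the OVA libraries. Ccl5, a chemokine that draws T cells and other leukocytes, stood at 10700, 2166, 10700 and 2390 CPM. The OVA libraries lay about as low as each other, and the ratios were 0.202 (0.190 to 0.215) and 0.223 (0.213 to 0.235). The log2 ratios of -2.31 and -2.16 were further from 0 than those in T cells, -0.99 and -1.07. They ranged from -2.59 to -1.78 and from -2.41 to -1.62 over the alternative settings.

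The share of cells followed the level. After thinning, 87.8%, 53.3%, 86.1% and 65.1% of NK cells held a Ccl5 UMI (94.2%, 71.4%, 94.2% and 85.3% unthinned). Neutrophils held one in 6.53%, 1.48%, 4.80% and 1.37% of cells and macrophages in 33.5%, 10.4%, 26.1% and 7.67%, so Ccl5 UMIs were scarcer in the OVA libraries in cell types other than NK cells too. How much free Ccl5 RNA adds to the NK level was not tested.

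Xcl1, the chemokine that attracts cross-presenting dendritic cells, stood at 838, 56.9, 630 and 166 CPM, from 1742, 29, 1340 and 123 UMIs in 209, 12, 220 and 22 cells. Its ratios were 0.0680 (0.0454 to 0.0980) and 0.263 (0.217 to 0.317), the OVA libraries again below both others. In Ribavirin-OVA 49.6% of the UMIs lay in 1 cell, and without the cell of the most Xcl1 UMIs in each library the log2 ratios were -3.81 and -2.83 in place of -3.86 and -1.92. T cells gave -1.50 and -1.65. After thinning 24.4%, 6.67%, 27.6% and 7.34% of NK cells held a UMI (40.1%, 15.6%, 47.0% and 20.2% unthinned), against at most 0.25% of macrophages and neutrophils.

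Ifng, encoding the interferon-γ that activates macrophages, stood at 279, 88.3, 271 and 156 CPM, in 151, 24, 168 and 43 cells, with ratios of 0.316 (0.228 to 0.429) and 0.577 (0.469 to 0.706). Ccl3 and Ccl4, chemokines of inflammation, stood at 330, 265, 376 and 119 CPM and at 1095, 724, 1493 and 798 CPM. Ccl3 was thus past 2-fold lower in the ribavirin pair, at -1.66, and stood at -0.31 in the vehicle pair.

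Tgfb1 and Flt3l lay the other way. Tgfb1, a cytokine that restrains lymphocytes, stood at 235, 510.5, 270 and 561 CPM, ratios of 2.18 (1.86 to 2.53) and 2.08 (1.83 to 2.36) with no overlap between the libraries with and without OVA. Flt3l, the growth factor of dendritic cells, stood at 25.5, 39.3, 24.0 and 80.9 CPM. Ccl1 had 654 UMIs in 2 cells of Vehicle, 99.8% of them in 1 cell, and 0 elsewhere. Among the 8 secreted genes measured, 1 was higher and 4 lower in Vehicle-OVA over Vehicle (median -1.12) and 2 higher and 3 lower in Ribavirin-OVA over Ribavirin (median -0.85), where T cells gave medians of 0.33 and 0.27. Ccl1 passed the filter on low values through Vehicle alone, and over the other 7 genes 1 was higher and 3 lower (median -0.59) in the vehicle pair and 2 and 3 (median -0.90) in the ribavirin pair. Past 2-fold lower were 4.19% and 4.97% of all genes.

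**Figure D3:**
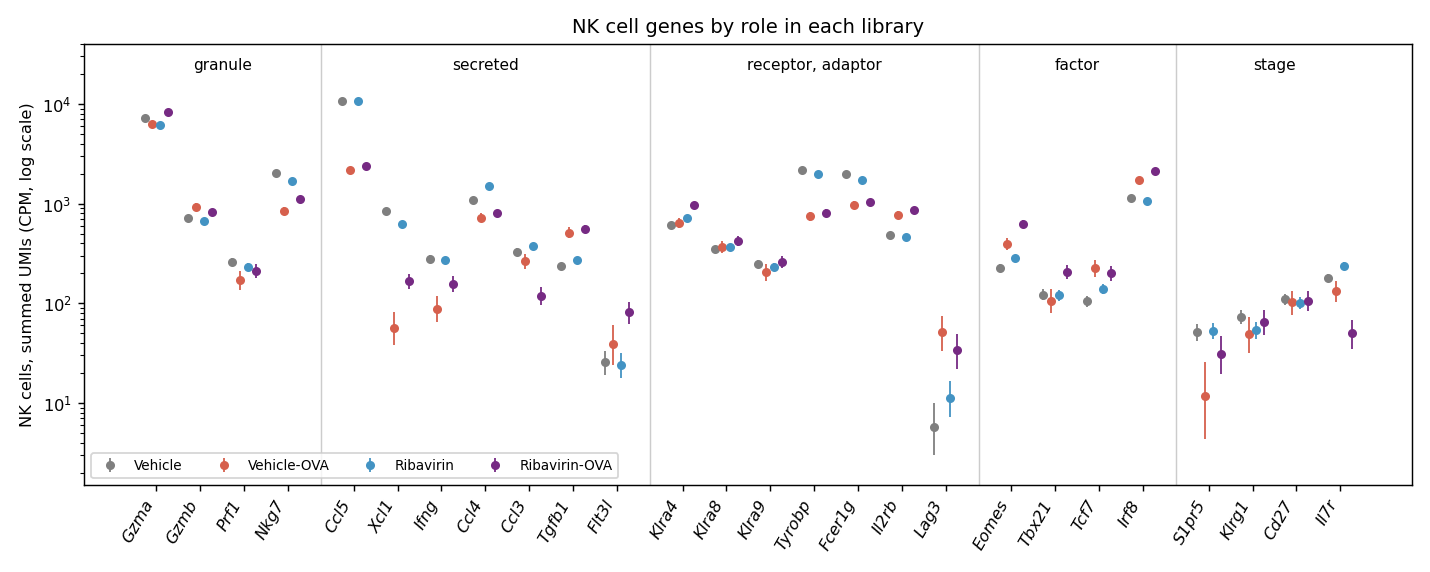
Level of 26 genes in summed NK cells of the 4 libraries, grouped by role, in CPM on a log axis, with exact 95% Poisson intervals. Libraries can be compared within a gene but genes cannot be compared with each other, since the values are not scaled by length. Ccl5, Xcl1 and Ifng sit lower and Tgfb1 and Eomes higher in both OVA libraries, while Gzma differs little.

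Among activating receptors, 1 of 13 was higher and 2 were lower in Vehicle-OVA over Vehicle (median -0.19) and 0 and 1 in Ribavirin-OVA over Ribavirin (median 0.23). Klrk1, which encodes the stress-ligand receptor NKG2D, stood at 862, 754, 806 and 777 CPM, and Klra8, the Ly49H receptor of a cytomegalovirus protein, at 347, 367, 371 and 425 CPM. Neither is past 2-fold in any OVA pair. Cd2, an adhesion receptor that costimulates killing, stood at 198, 82.5, 233 and 67.4 CPM and was past 2-fold lower in both. Over the alternative settings its log2 ratios ranged from -1.54 to -0.73 and from -2.02 to -1.24. Slamf7, a receptor of the SLAM family, stood at 121, 55.0, 72.5 and 86.3 CPM, and Slamf6 at 22.6, 56.9, 42.8 and 56.6 CPM.

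Of 11 inhibitory receptors measured, 2 were higher and 0 lower in Vehicle-OVA over Vehicle and 1 and 0 in Ribavirin-OVA over Ribavirin, with medians of 0.21 and 0.43. Lag3, a receptor of MHC class II that marks stimulated lymphocytes, stood at 5.77, 51.0, 11.3 and 33.7 CPM, with ratios of 8.84 (4.31 to 19.2) and 2.99 (1.64 to 5.46) and T cell log2 ratios of 2.74 and 2.25. It rested on 12, 26, 24 and 25 UMIs in 11, 19, 19 and 13 cells. Lag3 passed the filter on low values through Vehicle-OVA, where it was highest, and its place in these counts follows from that. Klrc1, encoding NKG2A, stood at 205, 369, 197 and 340 CPM and Cd96 at 30.3, 64.8, 40.5 and 68.8 CPM. Klrg1 stood at 73.6, 49.1, 53.6 and 64.8 CPM.

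The Ly49 receptors combine within a cell. Cells with UMIs of 3 or more Ly49 genes made up 32.6% (28.6 to 36.8), 37.7% (26.9 to 49.4), 35.0% (30.7 to 39.6) and 45.9% (36.3 to 55.7), and cells with none 23.2%, 29.9%, 22.6% and 15.6%. The intervals overlap throughout, and the deeper cells of the OVA libraries hold more UMIs with which to find a receptor. Klra4 itself stood at 604, 642, 723 and 972.5 CPM.

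The adaptors that carry receptor signals were split. Tyrobp (DAP12), which pairs with activating Ly49 and NKG2C receptors, stood at 2191, 744, 1984 and 807 CPM, ratios of 0.340 (0.305 to 0.377) and 0.407 (0.373 to 0.443). Fcer1g, the signalling chain of NKp46 and CD16, stood at 2005, 968, 1716 and 1035 CPM, and Hcst (DAP10), the partner of NKG2D, at 552, 310, 536 and 374 CPM. All 3 are small membrane adaptors and were lower in both OVA libraries than in both others. How many of all genes were lower in this way was not counted. Over the alternative settings the log2 ratios of Tyrobp ranged from -1.84 to -1.03 and from -1.61 to -0.76. Those of Fcer1g ranged from -1.33 to -0.52 and from -0.98 to -0.19. Vav1, an exchange factor downstream of them, stood at 55.3, 120, 52.2 and 82.3 CPM and Zap70, a tyrosine kinase, at 54.8, 76.6, 66.8 and 109 CPM. Over 17 adaptor and signalling genes, 1 was higher and 2 lower in the vehicle pair and 0 and 1 in the ribavirin pair, with medians of 0.28 and 0.43.

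Receptors of the cytokines that sustain NK cells were near the median of all genes, with 3 of 26 higher and 0 lower (median 0.31) in Vehicle-OVA over Vehicle and 1 higher and 1 lower (median 0.15) in Ribavirin-OVA over Ribavirin. Il2rb, the chain shared by the IL-2 and IL-15 receptors, stood at 486, 768, 460 and 856 CPM. Il21r, the receptor of IL-21, stood at 14.4, 55.0, 20.7 and 71.5 CPM, past 2-fold higher in both pairs at 1.86 and 1.74. Il7r stood at 180, 132, 238 and 49.9 CPM, so Ribavirin-OVA was lowest. Cish, a feedback inhibitor of IL-15 signalling, stood at 36.1, 86.4, 38.6 and 59.4 CPM and Stat5a at 17.8, 55.0, 21.2 and 21.6 CPM.

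The T-box factor Eomes, which specifies NK cells, stood at 225, 397, 284 and 622 CPM, ratios of 1.76 (1.49 to 2.08) and 2.19 (1.94 to 2.48), with both OVA libraries above both others, and T cells gave log2 ratios of 0.86 and 1.69. Tbx21, encoding T-bet, stood at 122, 106, 120 and 208 CPM and was higher in Ribavirin-OVA. Nfil3, an early NK cell factor, stood at 62.5, 145, 74.8 and 119 CPM. Tcf7, encoding the TCF-1 of immature and memory-like lymphocytes, stood at 104, 224, 139 and 200 CPM. Irf8 stood at 1127, 1718, 1063 and 2143 CPM and Fli1, an ETS factor, at 126, 251, 120 and 271 CPM. Prdm1, encoding BLIMP-1, stood at 31.7, 33.4, 36.2 and 78.2 CPM. Of 21 transcription factors, 3 and 4 were higher in the OVA pairs and 0 lower, with medians of 0.39 and 0.62 against 0.94 and 0.87 in T cells.

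Genes of residence and movement showed both directions. Klf2, a factor that maintains circulation, stood at 822, 440, 884 and 855 CPM. S1pr5, the sphingosine-phosphate receptor with which NK cells leave tissues, stood at 51.5, 11.8, 52.7 and 31.0 CPM, ratios of 0.229 (0.0822 to 0.515) and 0.589 (0.359 to 0.928). In Vehicle-OVA S1pr5 rested on 6 UMIs in 3 cells. Cx3cr1, the fractalkine receptor, stood at 39.0, 96.2, 40.0 and 45.9 CPM. Its Vehicle-OVA value came from 49 UMIs in 9 cells, 42.9% of them in 1 cell. The log2 ratio of Cx3cr1 in the vehicle pair, 1.28, ranged from 0.59 to 1.58 over the alternative settings. The chemokine receptor Ccr2 stood at 330, 473, 312 and 639 CPM and Itgal, an LFA-1 chain, at 353, 634, 371 and 772 CPM, both highest in the OVA libraries. Of 19 trafficking genes, 1 was higher and 1 lower in the vehicle pair (median 0.25) and 3 and 0 in the ribavirin pair (median 0.35).

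In Ribavirin-OVA over Ribavirin 10 of 14 cell cycle genes were higher, with a median of 1.38, and in Vehicle-OVA over Vehicle 3 of 14, with a median of 0.48, while none was lower and T cells gave medians of -0.30 and -0.11. Pcna, the sliding clamp of DNA replication, stood at 85.1, 183, 88.9 and 312 CPM, ratios of 2.15 (1.65 to 2.77) and 3.50 (2.88 to 4.27). The replication helicase genes Mcm2 and Mcm5 stood at 22.6, 23.6, 14.6 and 64.8 CPM and at 26.0, 53.0, 18.8 and 76.9 CPM, with Ribavirin-OVA highest in both.

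The mitotic marker Mki67 stood at 58.2, 82.5, 35.8 and 120 CPM, but rested on 21, 5, 27 and 9 cells, with 33.9%, 59.5%, 32.9% and 51.7% of its UMIs in 1 cell. Top2a stood at 81.3, 143, 41.4 and 105 CPM. Without the cell of the most UMIs of each gene, 10 of 14 were still higher in the ribavirin pair (median 1.15), whereas in the vehicle pair 0 were higher and 1 lower. Without cells holding RNA of other types the counts over 12 genes were 9 higher (median 1.31) in the ribavirin pair and 0 higher and 1 lower (median 0.15) in the vehicle pair. In the ribavirin pair, the mean of single-cell CPM gave 5 of 12 higher (median 0.83), and without cells holding S100a8 or S100a9, which left 58 and 38 cells, 1 of 7 was higher and 1 lower, with a median of 0.17 that lies below the shift of all genes. The Ribavirin library itself was low, with a median of -0.45 over Vehicle.

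The interferon-stimulated genes had medians on different sides of 0 in the OVA pairs. In Vehicle-OVA over Vehicle 9 of 24 were higher and 1 lower (median 0.80), and in Ribavirin-OVA over Ribavirin 0 were higher and 4 lower (median -0.26), while T cells gave 0.55 and 0.31. In Ribavirin-OVA over Vehicle-OVA 13 were lower and 0 higher, with a median of -1.05. Some members, Rsad2 and Ifit1 among them, passed the filter on low values through Vehicle-OVA, where they were high, and their place in these counts follows from that. Over the 20 members with a mean of at least 20 CPM in the 3 libraries other than their highest, 5 were higher and 1 lower (median 0.64) in the vehicle pair, 0 and 4 (median -0.26) in the ribavirin pair, and 0 and 9 (median -0.88) in Ribavirin-OVA over Vehicle-OVA. Rsad2, encoding the antiviral protein viperin, stood at 5.77, 116, 11.3 and 8.09 CPM, Ifit1 at 9.62, 62.8, 13.6 and 6.74 CPM, and Isg15 at 81.3, 106, 45.2 and 13.5 CPM.

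This list rested on few cells. In Vehicle-OVA 11 cells held an Rsad2 UMI and 1 of them 54.2% of the UMIs, and 1 cell held 62.5% of those of Ifit1. Without the cells with RNA of other types, 2 of 20 genes were higher and 1 lower in the vehicle pair (median 0.41) and 0 and 2 in the ribavirin pair (median -0.05). The ribavirin pair lay above 0 under 2 other settings, at 0.17 over 17 genes without cells holding S100a8 or S100a9, which left 58 and 38 cells, and at 0.02 for the mean of single-cell CPM. The master regulator Irf7, at 36.1, 114, 41.9 and 31.0 CPM, turned from 1.63 to -0.38 in the vehicle pair. Ifi27l2a, at 134, 21.6, 150 and 18.9 CPM, was lower in both OVA libraries, against the direction of most of the list in Vehicle-OVA.

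The ribosomal and energy lists ran downwards in both OVA pairs. Of 81 ribosomal protein genes, 15 and 8 were lower and 0 higher, with medians of -0.67 and -0.56, less far from 0 than the -0.93 and -0.92 of T cells. Of 72 nuclear genes of oxidative phosphorylation, 18 and 13 were lower and 0 and 1 higher (medians -0.65 and -0.60). Both lists hold short transcripts, whose ratios were low in these pairs as a class. Of 13 genes of the mitochondrial genome, 1 and 3 were higher (medians 0.48 and 0.49), along with the higher mitochondrial share of the OVA libraries.

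Stress granule genes, which encode RNA-binding proteins that store stalled messages, had medians of 0.58 and 0.57 over 14 genes, with 4 and 1 higher and 0 lower, and T cells gave 0.52 and 0.57. G3bp1, a scaffold of these granules, stood at 110, 232, 127 and 212 CPM, Pabpc1, the poly(A)-binding protein, at 848, 1812, 860 and 1651 CPM, and Ddx3x, an RNA helicase, at 167, 399, 202 and 436 CPM. All 3 were highest in the OVA libraries, where the median of all genes was also raised, at 0.28 and 0.25. How many of all genes were highest there was not counted. Over the alternative settings the list medians ranged from 0.17 to 0.65 and from 0.17 to 0.63. In MHC class I presentation, of 12 genes 1 was higher and 1 lower in the vehicle pair and 0 and 1 in the ribavirin pair (medians -0.17 and -0.22). The immunoproteasome subunit Psmb8 stood at 516, 240, 411 and 186 CPM, Tapbp, encoding tapasin, at 175, 363, 178 and 285 CPM, and B2m, the light chain of class I molecules, at 2715, 3281, 2695 and 3202 CPM.

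Among smaller lists, activation genes had 1 of 12 higher in the vehicle pair and 2 in the ribavirin pair, with 0 lower (medians 0.50 and 0.23). Icos, a costimulatory receptor among them, stood at 45.7, 94.2, 33.4 and 79.6 CPM. Glycolysis genes had 1 of 12 higher in the vehicle pair and 0 in the ribavirin pair (medians 0.31 and 0.21). The 3 death ligand and lymphotoxin genes had 0 past 2-fold in the vehicle pair and 1 lower in the ribavirin pair (medians 0.02 and 0.43). Fasl stood at 233, 236, 206 and 295 CPM and Ltb, encoding lymphotoxin-β, at 300, 194, 245 and 101 CPM. Of the 5 NK markers outside the gate, 0 were higher and 2 lower in the vehicle pair and 1 and 1 in the ribavirin pair (medians -0.22 and 0.43).

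Dissociation genes, which respond to tissue digestion, had 2 of 17 higher in the vehicle pair (median 0.13) and 3 lower in the ribavirin pair (median -0.31). The immediate early gene Egr1 stood at 107, 485, 188 and 136 CPM and Ier3 at 41.4, 236, 47.0 and 18.9 CPM, both highest in Vehicle-OVA. The part of tissue handling in these values was not tested. Among genes typical of ILC1, 2 of 10 were higher and 1 lower in the vehicle pair (median 0.62) and 1 and 3 in the ribavirin pair (median 0.12). Over members with a mean of at least 50 CPM both medians lay below 0, at -0.42 and -0.63.

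**Figure D4:**
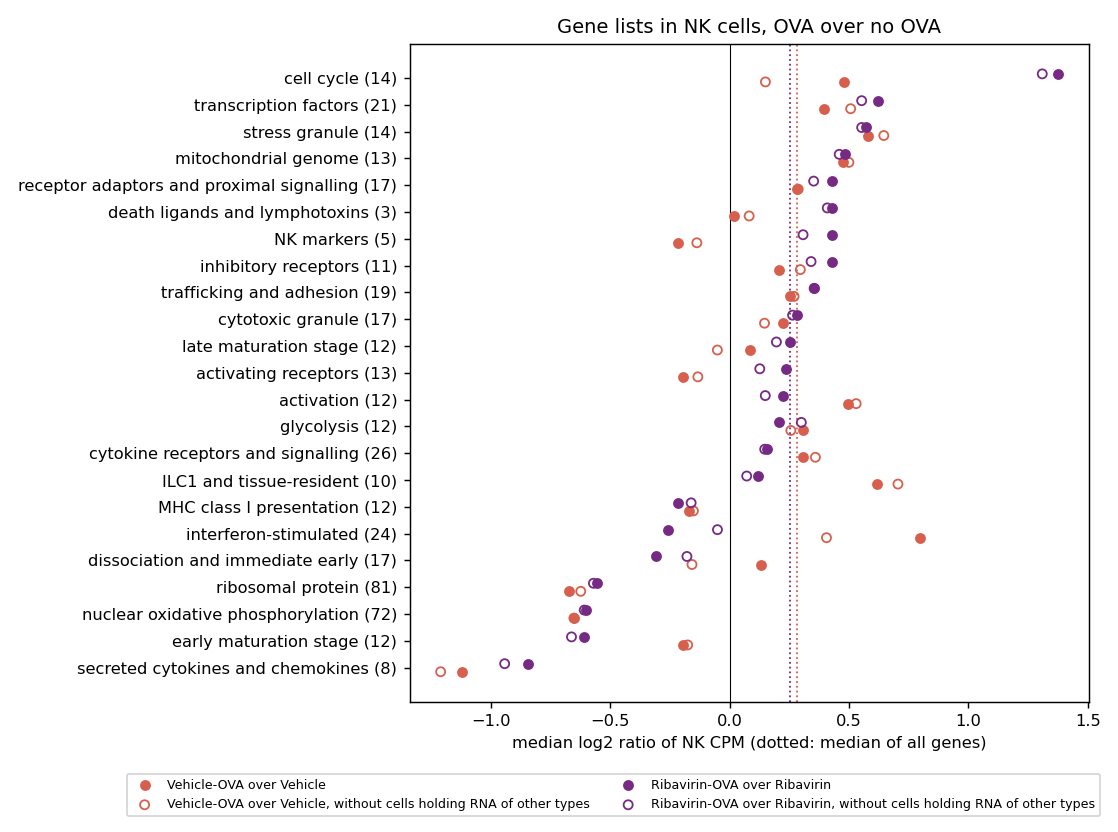
Median log2 ratio of 23 gene lists in NK cells for Vehicle-OVA over Vehicle and Ribavirin-OVA over Ribavirin; filled points are the values reported, open points leave out cells holding RNA of other types, and dotted lines mark the median of all genes (0.28 and 0.25). Secreted genes, with Ccl1 counted among them, lie lowest in both pairs (-1.12 and -0.85). Cell cycle genes lie highest in the ribavirin pair (1.38), and the interferon-stimulated genes lie on different sides of 0 (0.80 and -0.26).

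Maturation stages were read from the UMIs of Cd27 and Itgam. Cells with Cd27 but no Itgam UMI made up 21.1%, 24.7%, 23.5% and 22.0% of NK cells, and cells with Itgam but no Cd27 UMI 24.2%, 24.7%, 24.8% and 33.9%. Both genes were found in 6.14%, 14.3%, 7.48% and 15.6% and neither in 48.6%, 36.4%, 44.2% and 28.4%. The share with neither was smaller in the deeper OVA libraries, and the part of depth in these shares was not tested. Cd27 itself stood at 110, 102, 100 and 107 CPM.

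Across all NK cells, 2 of 12 early-stage genes were higher and 1 lower in Vehicle-OVA over Vehicle (median -0.20) and 0 and 4 in Ribavirin-OVA over Ribavirin (median -0.61). Of 12 late-stage genes 2 were higher and 1 lower (median 0.09) and 1 and 0 (median 0.25). The 2 higher in the vehicle pair were Cma1 and Cx3cr1, with 86.7% and 42.9% of their Vehicle-OVA UMIs in 1 cell. Without its highest cell Cma1 gave -0.66 in place of 2.20. Kit, a growth factor receptor of early cells, stood at 85.1, 134, 70.6 and 14.8 CPM, ratios of 1.57 (1.17 to 2.09) and 0.210 (0.103 to 0.387), and the log2 ratio of 0.64 in the vehicle pair was 0.06 without cells holding RNA of other types. Cd7, an early lymphoid surface protein, stood at 368, 257, 329 and 166 CPM.

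The stages differed in the same way within every library. The late-stage genes Gzmb, Prf1, Zeb2, S1pr5 and Klrg1 were higher and the early-stage genes Tcf7, Ltb, Emb and Xcl1 lower in cells with Itgam alone in all 4 libraries. Gzmb stood at 1518, 2565, 1238 and 2455 CPM in cells with Itgam alone and at 241, 240, 194 and 157 CPM in cells with Cd27 alone, log2 ratios of 2.65, 3.41, 2.66 and 3.96. Prf1 gave 2.43, 2.41, 2.14 and 2.62. Zeb2, a transcription factor of late maturation, gave 2.60, 3.83, 1.71 and 2.75, and Tcf7 gave -1.45, -2.66, -1.75 and -2.99.

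Ccl5 was lower in the OVA libraries at both stages. In cells with Itgam alone it stood at 17033, 6931, 16992 and 6228 CPM, and in cells with Cd27 alone at 5685, 704, 6815 and 398 CPM. S1pr5 had 0 UMIs in cells with Cd27 alone of both OVA libraries. Each stage holds 19 to 126 cells per library, 19 of each kind in Vehicle-OVA. Median depths were 4179.5, 8685, 4591.5 and 7936.5 UMIs with Cd27 alone and 3156, 4817, 3724 and 4252 UMIs with Itgam alone.

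**Figure D5:**
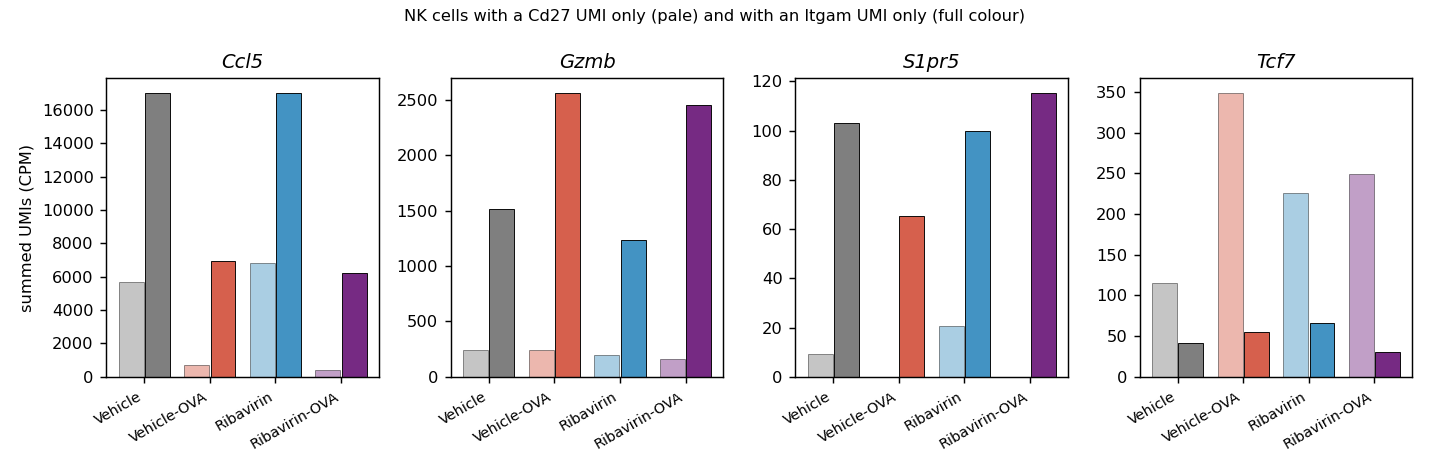
Level of Ccl5, Gzmb, S1pr5 and Tcf7, in CPM, in NK cells with Cd27 alone (pale) and with Itgam alone (full colour) of each library. Gzmb and Ccl5 are higher and Tcf7 lower with Itgam alone in all 4 libraries, and Ccl5 is lower in the OVA libraries at both stages.

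Cells with a UMI of Itga1, the CD49a integrin chain by which ILC1 and tissue-resident NK cells are known, numbered 20, 9, 20 and 13, against 501, 68, 448 and 96 without. Gzmb was lower in them, with ratios of 0.145 (0.066 to 0.276) in Vehicle, 0.170 (0.081 to 0.313) in Ribavirin, 0.155 (0.091 to 0.248) in Ribavirin-OVA, and 0 against 469 UMIs in Vehicle-OVA, where the upper bound of the ratio was 0.0598. Gzma was lower too, at 0.328, 0.582, 0.507 and 0.377. Cxcr6, a chemokine receptor of liver-resident lymphocytes, was higher in 3 libraries, at 3.14, 3.44 and 13.96, and stood at 0.631 (0.124 to 2.00) in Vehicle-OVA. Rora, a nuclear receptor of innate lymphoid cells, gave 1.66 (0.841 to 2.98), 2.81, 3.11 and 1.96. Lpxn gave 3.40, 2.62, 3.39 and 2.63, and the adhesion protein Pecam1 2.18, 2.14, 2.39 and 3.68. Gzmb, Rora, Lpxn and Pecam1 were named for the size of their ratios. Gzma and Cxcr6 come from marker genes read in the same split, some of which ran both ways. Il7r gave 3.09, 0.883, 2.30 and 0.448, Tnfsf10 0.835, 2.10, 2.31 and 3.49, and Klra4 0.582, 1.46, 0.528 and 0.314. Eomes gave 0.788, 0.272, 0.826 and 0.688, with intervals that include 1 in Vehicle and Ribavirin.

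Genes that ran furthest in the same direction in both OVA pairs were sought among those at least as high in NK cells as in all other cells. Nt5e, the ecto-enzyme CD73 that makes adenosine, stood at 22.6, 88.3, 21.2 and 98.5 CPM. F2r, the thrombin receptor PAR1, stood at 34.6, 110, 40.0 and 142 CPM, and Uba6, a ubiquitin-activating enzyme, at 15.9, 64.8, 17.9 and 59.4 CPM. In each of these 3 genes the OVA libraries lay above both others. Gpr155, Il21r, Gm26917, Gm26853 and 1700017B05Rik complete the 8 highest genes, and their log2 ratios lay between 1.73 and 2.68. Gpr155 rested on 16, 18, 25 and 37 UMIs. It passed the filter on low values through Ribavirin-OVA, where it was highest, and its place here follows from that.

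The 8 lowest genes held the chemokines Ccl5 and Xcl1. S100a10, the partner of annexin A2, stood at 1014, 283, 889 and 297 CPM, the linker histone gene Hist1h1e at 131, 33.4, 121 and 35.1 CPM, and Rnaseh2c, a subunit of RNase H2, at 140, 39.3, 104 and 33.7 CPM. The OVA libraries lay below both others in each. Tmem37 stood at 64.9, 11.8, 44.7 and 13.5 CPM, AY036118 at 692, 208, 1019 and 252 CPM, and Gm26699 at 41.4, 7.85, 43.3 and 12.1 CPM.

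Genes that ran furthest in the same direction in Ribavirin over Vehicle and in Ribavirin-OVA over Vehicle-OVA were low in level. Higher were Rbm43 (0.91 and 1.91), Mapk8ip3 (0.77 and 1.91), Foxj3 (0.82 and 0.81) and Pgm2l1 (0.98 and 0.75). Rbm43 rested on 34, 4, 67 and 24 UMIs and Mapk8ip3 on 40, 4, 71 and 24. Both passed the filter on low values through a ribavirin library where they were high, and their place here follows from that. Pgm2l1 stood at 24.1, 41.2, 48.5 and 70.1 CPM, so the allergen pairs also differ in it. Lower were Gzmc, which rests on few cells, Dph6 (-0.80 and -0.85), Prc1 (-0.88 and -0.73) and Snrnp25 (-0.68 and -0.99). Prc1 lay in 3 cells of Vehicle-OVA and 6 of Ribavirin-OVA, with 78.6% and 58.3% of its UMIs in 1 cell. Its second ratio ranged from -0.83 to 0.17 over the alternative settings. Dph6 and Prc1 passed the filter on low values through Vehicle-OVA, where they were highest. Of these 8 genes Gzmc was the one past 2-fold in both pairs.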

How the data were processed

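The authors deposited, for each of the 4 libraries, whole-number UMI counts for every gene and barcode, made with Cell Ranger 5.0.0 on mm10 per the submitters' processing notes and not normalized, with 27998 genes. From these counts, cells were filtered and gated as given above, UMIs of NK cells were summed per library and scaled to CPM, and ratios were taken with a pseudocount of 1 CPM over genes with a mean of at least 20 CPM, leaving out the gate genes and 120 genes that share a symbol. Shares have Clopper-Pearson intervals, sums exact Poisson intervals and ratios exact conditional binomial intervals. Doublets were marked by Scrublet's procedure (0.4% expected per 1000 barcodes, 2000 variable genes, 30 components). Transcript lengths are those of GENCODE M21, which may not be the annotation of the counts. Alternatives in the gate, filters, pseudocount and centring were computed. The ratio code was tested on simulated data.

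The named genes are those of the role lists, the 8 genes each way with the largest ratios shared by both OVA pairs, 4 each way shared by both ribavirin pairs, the 4 with the largest opposite ratios, the 12 furthest above other cells, and the genes that split cells by Itga1. The members and lists were chosen with earlier results of these data known. No test was run, as each group is 1 library. Python 3.11.15, numpy 2.4.6, scipy 1.17.1, pandas 2.3.3, scikit-learn 1.9.0 and matplotlib 3.10.9 were used.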

Additional observations from a re-analysis of the deposited data

Results flagged for a closer look

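These results stood out because the OVA library lay on opposite sides of its partner in the vehicle and the ribavirin pair. The difference between the pairs was not tested, since each group is 1 library. Values are log2 ratios in NK cells, Vehicle-OVA over Vehicle first and Ribavirin-OVA over Ribavirin second.

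Slc7a11, a cystine transporter subunit, had 3.36 and -4.96, from 14 UMIs in Vehicle, 40 in Vehicle-OVA, 64 in Ribavirin and 0 in Ribavirin-OVA, where the level was at least 7.44-fold lower than in Ribavirin. Hcar2, a receptor of hydroxy acids, had 4.41 and -2.94. Mgl2, a lectin of macrophages and dendritic cells, had 2.74 and -4.44, with 96.6% of its Vehicle-OVA UMIs in 1 cell and a level at least 5.12-fold lower in Ribavirin-OVA. Il1rn, the IL-1 receptor antagonist, had 3.87 and -1.72. These 4 genes were picked for the size of the opposition. Slc7a11, Hcar2 and Mgl2 also passed the filter on low values through Vehicle-OVA, where they were high.

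Gzma had -0.22 and 0.44, which became 0.31 and 0.98, on the same side, when corrected for transcript length. Kit had 0.64 and -2.18, Ly6a (Sca-1) had 1.64 and -0.51, and Egr1 had 2.17 and -0.46. The median of the interferon-stimulated genes was 0.80 and -0.26, and the second value was 0.02 for the mean of single-cell CPM and 0.17 without cells holding S100a8 or S100a9. Summed neutrophil markers in NK cells, at 436, 1486, 834 and 294 CPM in the order Vehicle, Vehicle-OVA, Ribavirin and Ribavirin-OVA, moved with these genes other than Gzma, and their part in the values was not tested.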

How the results depend on the processing

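No paired analysis was possible because each group is 1 library. The alternatives of leaving out NK cells with RNA of other types, of filtering genes on the mean of the 3 libraries other than the highest, and of leaving out the cell with the most UMIs of each gene were chosen after seeing the data. Of 1610 medians of lists 1 reversed, and of 4954 values of genes 16 reversed and 4728 stayed on the same side of 2-fold. Reversed log2 ratios follow, and the cause was not tested. Cma1 in Vehicle-OVA over Vehicle was -0.61 with a gate sum of 3, -0.61 without other-type cells and -0.66 without its highest cell, and in Ribavirin-OVA over Vehicle-OVA 0.30, 0.23 and 0.28. Irf7 was -0.47 with 0 Cd3 and C1q UMIs and -0.38 without other-type cells in the first pair, and 0.43 and 0.18 in the second. Gzmc in Ribavirin over Vehicle was 0.19 without cells with S100a8 or S100a9 and 0.37 without its highest cell, and without that cell -0.97 in Vehicle-OVA over Vehicle and 1.20 in Ribavirin-OVA over Vehicle-OVA. Without the highest cell Mgl2 was -0.71 in Vehicle-OVA over Vehicle, and without other-type cells Il1rn was 0.10 in Ribavirin-OVA over Ribavirin. The ILC1 median was -0.42 in the first pair at a mean of at least 50 CPM.

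NK share ratios on the log2 scale were -0.040 for Ribavirin over Vehicle when gated after thinning. Without cells with S100a8 or S100a9, which left 163, 1, 58 and 38 NK cells, they were -6.79, 0.59, -1.15 and 6.24 in the order Vehicle-OVA over Vehicle, Ribavirin-OVA over Ribavirin, Ribavirin over Vehicle, Ribavirin-OVA over Vehicle-OVA. Among NK and T cells they were -0.52, 0.45 and 0.25 for Vehicle-OVA over Vehicle, Ribavirin over Vehicle and Ribavirin-OVA over Vehicle-OVA.

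Counts of genes past 2-fold, given as higher and lower in this order of pairs, were 1379 and 540, 988 and 666, 237 and 95, and 528 and 754 at a mean of at least 5 CPM, and 298 and 152, 236 and 176, 20 and 4, and 33 and 79 at 50 CPM. With the filter on the 3 libraries other than the highest, 25 were higher in Ribavirin over Vehicle and 71 in Ribavirin-OVA over Vehicle-OVA. Centred on the median gene, the OVA pairs gave 297 and 517, and 201 and 494. Corrected for length, 272 and 182 were higher. With 0 Cd3 and C1q UMIs, 23 were lower in Ribavirin over Vehicle and 207 higher in Ribavirin-OVA over Vehicle-OVA. Without cells with S100a8 or S100a9, 965 and 468 were counted in Ribavirin-OVA over Ribavirin and 219 and 252 in Ribavirin over Vehicle. Without other-type cells, 151 were lower in Ribavirin-OVA over Vehicle-OVA, and with a pseudocount of 5 CPM 84 were higher there. Without ribosomal and mitochondrial genes, 434 were lower in Vehicle-OVA over Vehicle and 18 in Ribavirin over Vehicle, and 195 higher in Ribavirin-OVA over Vehicle-OVA. Without the highest cell, 408 were lower in Vehicle-OVA over Vehicle and 207 higher in Ribavirin-OVA over Vehicle-OVA. The 77 NK cells of Vehicle-OVA limit the precision of both pairs that hold it.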

Other observations

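The number of genes shared by both OVA pairs depended on the setting. As reported, 218 genes were higher and 110 lower in both. Without cells holding RNA of other types these were 227 and 114, without the cell with the most UMIs of each gene 141 and 188, centred on the median gene 56 and 257, and corrected for length 54 and 107. Genes higher in Vehicle-OVA but lower in Ribavirin-OVA numbered 34 as reported and 10 without cells holding RNA of other types. With the filter on the mean of the libraries other than the highest they numbered 19.

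Mast cell genes, present in 1 NK-gated cell of Vehicle-OVA, gave large ratios for that library. Mcpt4 stood at least 627-fold higher in Vehicle-OVA than in Vehicle and Cpa3 at least 248-fold, both against a floor of 3 counts in a library at 0. Cma1, at 125 CPM in Vehicle, 575 in Vehicle-OVA, 89.4 in Ribavirin and 104 in Ribavirin-OVA, had 86.7% of its Vehicle-OVA UMIs in 1 cell.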
